A study of Manihot esculenta with 9 samples.

Results

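The 3 libraries of mature leaves from cassava seedlings treated with PEG were compared with the 3 libraries from seedlings treated with ABA, which are 6 of the 9 libraries of the series. The comparison takes every gene of the deposited expression table, 33033 genes, and does not use the 3 libraries from seedlings kept in MS medium alone (MS control). All seedlings were wild type, were grown from stem cuttings in MS medium and were 60 days old. The PEG group had PEG6000 in the medium at 7%, the ABA group had ABA at 50 μmol/L, and mature leaves were taken from both at 48 h. A gene was tested if it passed edgeR's filter on low counts, which 23642 genes did, and it was called higher or lower where the Benjamini-Hochberg adjusted p over these genes was under 0.05 in edgeR's quasi-likelihood test.

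PEG6000 is a polymer that stays outside cells and lowers the water potential of the medium, so that roots take up water less easily. Abscisic acid (ABA) is the hormone that plants make when water is short. ABA binds receptors that then block clade A protein phosphatases 2C, which frees SnRK2 kinases to activate ABF transcription factors, and stomatal closure, late embryogenesis abundant (LEA) proteins, raffinose sugars and surface waxes are among its known outputs. Plants under osmotic stress also respond by routes that do not need ABA, and the comparison asks where leaves under osmotic stress and leaves given the hormone differed.

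Total counts were 15847859 to 17108746 in the PEG libraries, 14850183 to 15690202 in the ABA libraries and 13923803 to 16378389 in the MS control libraries. The study describes its 3 libraries per group as biological replicates without saying that each came from its own plant, so the p-values measure only the spread between these libraries. That spread was small, with a biological coefficient of variation of 0.0958. The first principal component of the 6 libraries held 89.7% of the variance. Markers of leaf mesophyll (Rubisco small subunits, Rubisco activase, carbonic anhydrase and phosphoribulokinase) were present in every library, and their 9 genes summed to 10034 to 10536 FPKM (fragments per kilobase of transcript, scaled to library size, a level corrected for gene length) in PEG, 1250 to 1354 FPKM in ABA and 4574 to 5112 FPKM in MS control libraries. Sums over the markers of other cell types, given as levels and not tested as sums, differed as well. Those of dividing cells summed to 77.8 to 79.0 FPKM in PEG, 43.8 to 46.0 FPKM in ABA and 7.02 to 7.98 FPKM in MS control libraries. Epidermis and trichome markers summed to 138 to 146 FPKM in PEG, 39.4 to 40.1 FPKM in ABA and 12.8 to 14.5 FPKM in MS control libraries. They are only 4 genes, of which 2 were tested and 1 was higher, so their sum can rest on a single gene. Protodermal factor 1, a gene of young epidermis given below, had means of 130.4 FPKM in PEG, 27.9 FPKM in ABA and 4.40 FPKM in MS control libraries. Phloem markers summed to 342 to 344 FPKM in PEG, 488 to 497 FPKM in ABA and 405 to 417 FPKM in MS control libraries. Root markers summed to 64.7 to 68.2 FPKM in PEG, 109.5 to 115 FPKM in ABA and 227 to 236 FPKM in MS control libraries. Sums of the xylem and shoot meristem markers overlapped between PEG and ABA. The 9 shoot meristem markers summed to 30.3 to 33.6 FPKM in PEG, 32.5 to 35.3 FPKM in ABA and 5.24 to 5.61 FPKM in MS control libraries, and among them the *CLV3*-like gene Manes.11G165600 had no read in any library. The part these cell types have in the differences below was not tested.

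In some lists the PEG and ABA means lay mostly on opposite sides of the MS control means. Clade A phosphatases, which ABA is known to switch on, had PEG means below the MS control for 11 of 14 tested members. Their ABA means were above it for 13. Photosystem genes had PEG means above the MS control for 53 of 57 and ABA means below it for 56. In other lists both lay mostly on the same side. For cyclins and their kinases, the PEG mean was above the MS control mean for 54 of 62 and the ABA mean for 46. Over all 23642 genes tested, the PEG mean was above the MS control mean for 14112 and below it for 9528. The ABA mean was above it for 10818 and below it for 12823, and list counts against the MS control are to be read beside these. Whether the PEG and MS control labels were exchanged could not be settled from these data. With such an exchange, what follows would be the MS control against ABA, so the position of the MS control libraries is given beside the main groups of genes. In 16 of the 49 gene lists the more frequent direction of the called genes against ABA was not that of the MS control means against ABA. These were the lists of cyclins, DNA replication, histones, kinesins and tubulins, leaf growth factors, gibberellin, ethylene, HD-Zip, MYB and WRKY factors, chlorophyll breakdown and senescence, lipid transfer proteins, glutathione S-transferases, calcium sensors, sugar genes and pectin enzymes outside the *MePMEs*. The MS control side of this count takes unscaled FPKM means of all tested members and was not tested. Some of these lists were near ties. MYB factors had 44 called higher and 43 lower, and an ABA mean below the MS control mean for 54 and above it for 60. Directions below follow the labels.

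Most of the transcriptome differed between the 2 treatments. Of the 23642 genes tested, 17862 (75.6%) passed, of which 9094 (38.5%) were higher and 8768 (37.1%) lower under PEG than under ABA, and 5780 did not pass. A difference of at least 2-fold was found for 6788 genes (28.7%), with 3703 (15.7%) higher and 3085 (13.0%) lower under PEG. The median log2 fold change was 0.02 over all genes tested, and its median size among the genes that passed was 0.75. Large differences were more often on the ABA side. At least 8-fold differences were found for 313 genes higher and 647 genes lower under PEG, and at least 32-fold differences for 47 higher and 176 lower. In bulk tissue, fewer cells of a type and less RNA per cell cannot be told apart, and this holds for all that follows. The split depends on the scaling. Library size alone called 11954 genes higher and 6298 lower, so that 65.5% of calls were higher under PEG in place of 50.9%, limma on log2(FPKM + 1) gave 65.4% and upper quartile scaling 57.6%. FPKM values are the authors' own and are not rescaled, and without scaling the log2 fold changes were 0.22 higher in median.

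**Figure D1:**
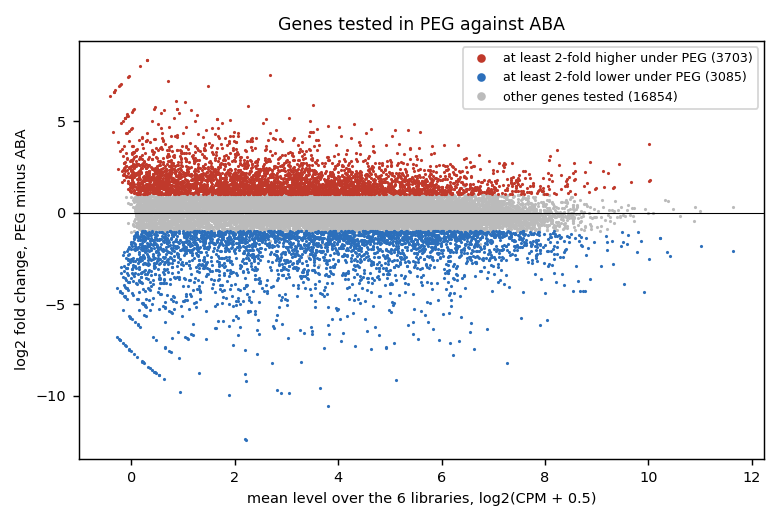
Log2 fold change of PEG over ABA (vertical axis) against the mean level over the 6 libraries as log2(CPM + 0.5) (horizontal axis) for the 23642 genes tested, 1 point per gene. Red points are the 3703 genes at least 2-fold higher and blue points the 3085 at least 2-fold lower under PEG, and the blue cloud reaches farther from 0 than the red one.

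For genes that differed by at least 2-fold, the MS control mean lay between the PEG and ABA means more often than outside them. This was so for 2528 of the 3703 genes higher under PEG (68.3%) and for 2194 of the 3085 lower (71.1%). The MS control was below both treatments for 892 genes higher (24.1%) and 451 genes lower (14.6%), and above both for 283 (7.64%) and 440 (14.3%).

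**Figure D2:**
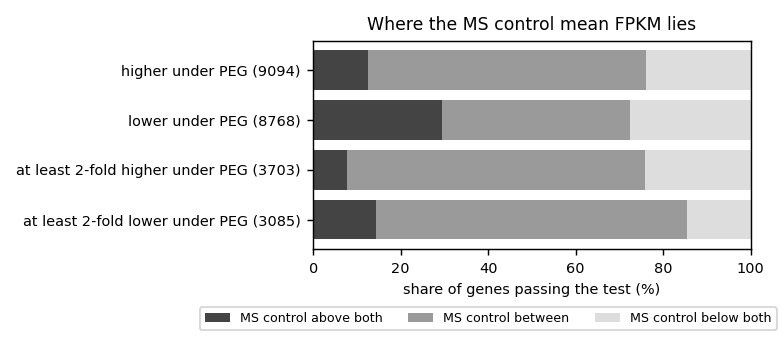
Share of the genes that passed the test (horizontal axis, %) whose MS control mean FPKM lay above both treatments, between them or below both, with the number of genes in brackets. Between is the largest class in all 4 rows, at 63.7% of the 9094 genes higher under PEG and 43.1% of the 8768 genes lower.

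Lists of genes by function differed in direction. Of the 49 lists, those with the lowest median log2 fold changes were the clade A phosphatases at -4.62, LEA proteins at -3.14 and galactinol and raffinose genes at -1.74, and those with the highest were light-harvesting antenna proteins at 2.08, Calvin cycle and photorespiration genes at 1.81 and photosystem subunits at 1.48. Lists such as ribosomal proteins (0.05), sucrose, starch and sugar transport (0.01) and MYB factors (-0.01) had medians close to the 0.02 of all genes tested. The counts of higher and lower members below are to be read beside the shares of all genes tested, 38.5% higher and 37.1% lower.

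**Figure D3:**
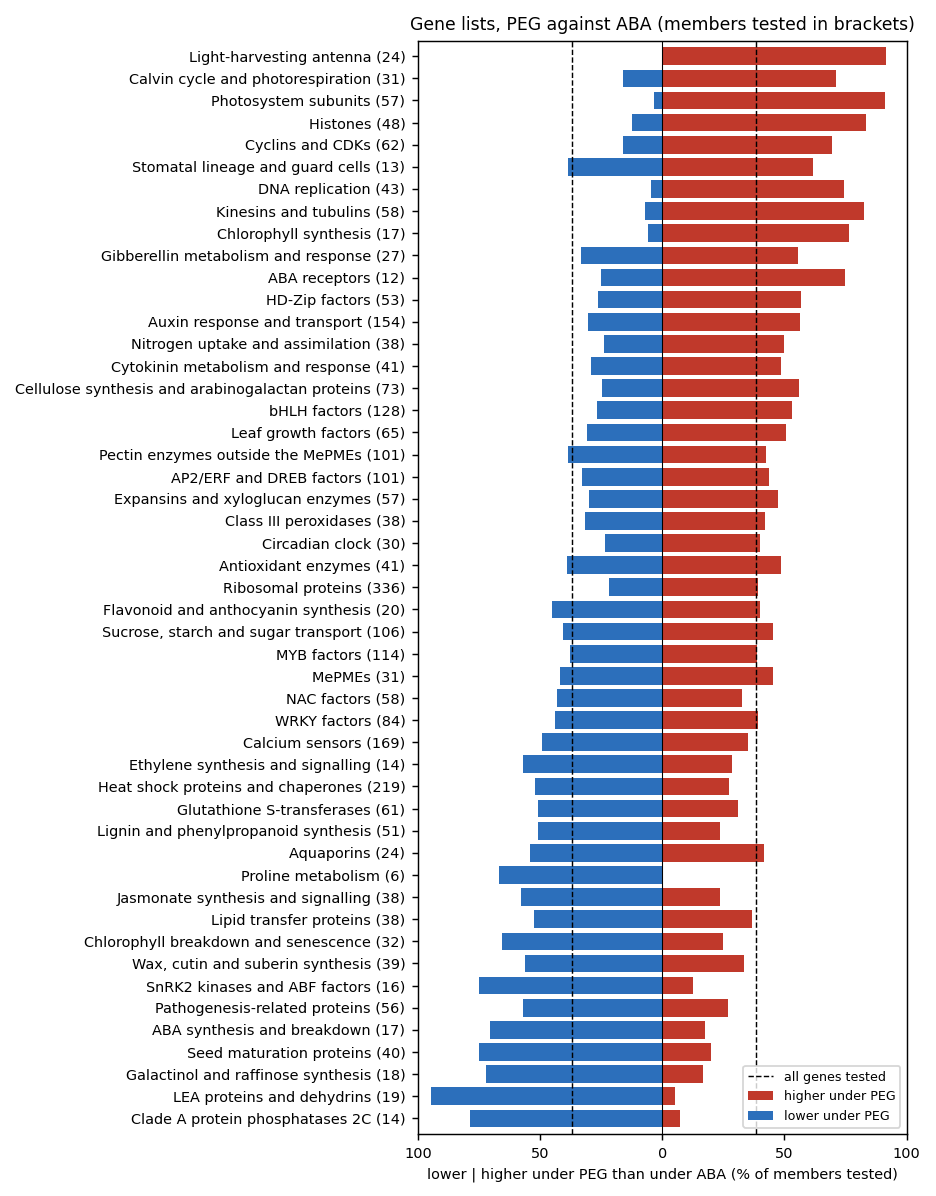
Share of the tested members of each gene list (horizontal axis, %) that were higher (red, to the right) or lower (blue, to the left) under PEG than under ABA, ordered by median log2 fold change, with the number tested in brackets. Dashed lines mark the shares of all genes tested, 38.5% higher and 37.1% lower; antenna and photosystem genes stand far to the right, LEA proteins and clade A phosphatases far to the left.

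The clade A protein phosphatases 2C, which hold back ABA signalling and are themselves switched on by ABA, were the list with the largest median difference. Of 14 members tested, 11 were lower under PEG than under ABA and 1 was higher, and the summed level of the list was 153 to 178 FPKM in PEG libraries against 2256 to 2271 FPKM in ABA libraries and 394 to 414 FPKM in MS control libraries. A copy of highly ABA-induced phosphatase 3 (*HAI3*, Manes.01G168600, chromosome 1 from 27253262 to 27255309 in the cassava genome v6.1) had 3.58, 3.22 and 3.63 FPKM under PEG, against 366, 377 and 369 FPKM under ABA. The ABA libraries were far above those of PEG, with a log2 fold change of -6.96 (SE 0.05, adjusted p = 4.65e-14 in edgeR's quasi-likelihood test), and the MS control mean of 42.0 FPKM fell between them. The other *HAI3* copy (Manes.02G128000) had 5.70 ± 0.137 FPKM under PEG and 444 ± 6.13 FPKM under ABA (SD, n = 3 each). *PP2CA* (Manes.07G119400), the phosphatase with the highest level, had 48.5, 48.5 and 47.6 FPKM under PEG, against 567, 554 and 564 FPKM under ABA, a log2 fold change of -3.76. The phosphatase that was higher (Manes.16G082900, described as homologous to *ABI1* and named here after its values were seen) was weakly expressed, with 4.32, 3.55 and 3.14 FPKM under PEG and 0.711, 0.647 and 0.723 FPKM under ABA. Relative to the MS control, the ABA mean was above it for 13 of the 14 phosphatases and the PEG mean below it for 11.

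The receptors upstream of the phosphatases moved the other way in part. Of 12 PYR/PYL/RCAR receptors tested, 9 were higher and 3 lower under PEG, with a median of 0.67. The receptors with the larger differences were weakly expressed. *PYL4*-like Manes.09G110800 had 14.2, 14 and 15.7 FPKM under PEG, against 3.62, 5.36 and 4.62 FPKM under ABA, and *PYL6*-like Manes.07G135200 had 5.88, 8.02 and 7.99 FPKM under PEG, against 0.609, 1.35 and 1.42 FPKM under ABA. Both were at least 2-fold higher and both were named after their values were seen. The receptor with the highest mean level, *RCAR1*-like Manes.05G024300, had 81.8, 77.1 and 79.9 FPKM under PEG, against 127, 121 and 126 FPKM under ABA, and was lower by a log2 fold change of -0.87 (SE 0.03, adjusted p = 5.34e-09 from the same test). The level summed over the list differed little, at 424 to 426 FPKM in PEG and 402 to 406 FPKM in ABA libraries.

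Of 16 SnRK2 kinases and ABF factors tested, 12 were lower under PEG and 2 higher, with a median of -0.86. The bZIP factor gene with the highest level (Manes.05G174500), whose Arabidopsis counterpart *ABF2* binds ABA-responsive elements, had 84.9, 88.7 and 90.3 FPKM under PEG, against 404, 409.9 and 413 FPKM under ABA and a mean of 95.9 FPKM in the MS control. Its PEG and MS control levels were close and its ABA level stood apart, with a PEG to ABA log2 fold change of -2.44 (SE 0.03). The *ABF3*-like gene Manes.10G080700 showed the same order, with 36.6 ± 0.579 FPKM under PEG and 112 ± 1.66 FPKM under ABA (SD, n = 3 each). The kinases that were higher, Manes.15G143700 at 0.63 and Manes.13G096300 at 0.78 on the log2 scale, were both under 2-fold and were named after their values were seen.

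Genes of ABA synthesis and of ABA breakdown were both more often lower than higher under PEG. Of 17 such genes tested, 12 were lower and 3 higher. Split after the values were seen, 7 of 11 synthesis genes were lower and 2 higher, and 5 of 6 breakdown genes were lower and 1 higher. *NCED3* encodes the carotenoid-cleaving enzyme that sets the rate of ABA synthesis under drought in Arabidopsis, and the cassava copies were low under PEG. Manes.03G083500 (chromosome 3 from 13377142 to 13379442) had 0.822, 1.12 and 1.07 FPKM under PEG, against 139, 143 and 144 FPKM under ABA, a log2 fold change of -7.36 (SE 0.08, adjusted p = 6.54e-13 in edgeR's quasi-likelihood test). Manes.15G102000 had 5.02, 6.24 and 5.79 FPKM under PEG, against 219, 221 and 228 FPKM under ABA. For both copies the MS control was close to PEG, at 1.95 and 5.90 FPKM. A gene of the ABA 8'-hydroxylase family *CYP707A*, which breaks ABA down, was lower as well (Manes.07G077900, -1.41 on the log2 scale), while another member of the family was higher (Manes.18G037400, 1.0), as was an *NCED5*-like gene at low level (Manes.15G122400, 1.10). A copy of *AAO3*, the aldehyde oxidase of the last step of ABA synthesis, was also higher (Manes.04G051100, 0.55), with 19.3, 20.2 and 20.8 FPKM under PEG, against 12.3, 11.5 and 11.6 FPKM under ABA. These last 3 genes were named after their values were seen.

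**Figure D4:**
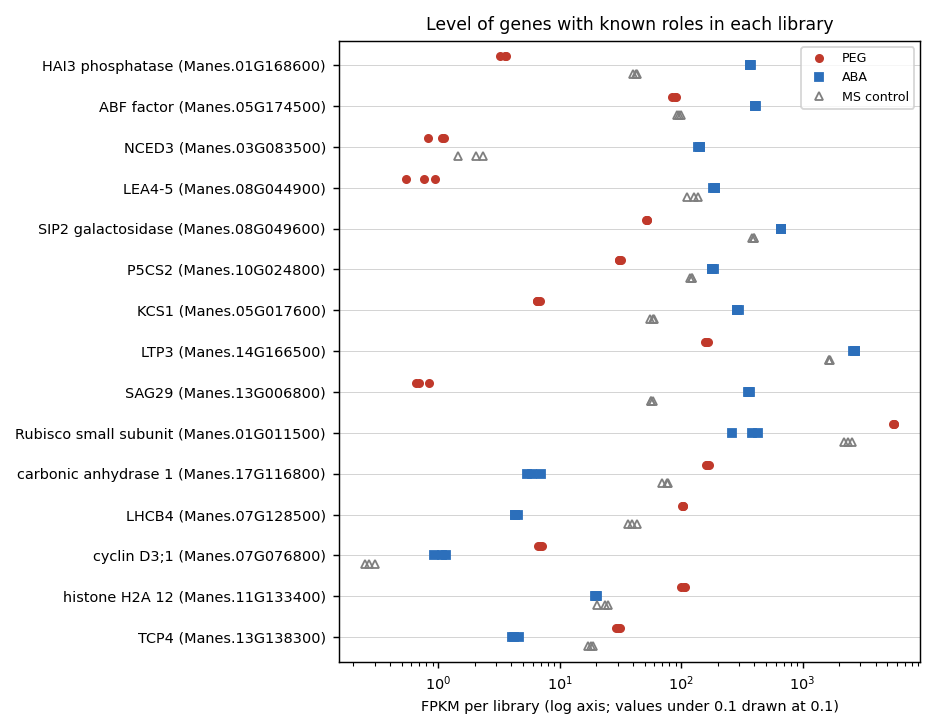
FPKM in each library (horizontal log axis) of 15 genes with known roles, with PEG as circles, ABA as squares and MS control as open triangles. The first 9 genes, from the HAI3 phosphatase to SAG29, are lower under PEG than under ABA and the last 6, from the Rubisco small subunit to TCP4, are higher, and for no gene do the PEG and ABA libraries overlap.

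Proteins that protect dried cells formed the next group. LEA proteins and dehydrins are hydrophilic proteins that stabilize membranes and other proteins as water is lost. Of 33 members, 19 were tested, of which 18 were lower and 1 was higher under PEG, and the list summed to 799.8 to 817 FPKM in PEG, 2018 to 2082 FPKM in ABA and 1107 to 1476 FPKM in MS control libraries. The PEG mean was below the MS control mean for 15 of the 19 and the ABA mean above it for 12. *LEA4-5*-like Manes.08G044900 had 0.770, 0.544 and 0.940 FPKM under PEG, against 189, 189 and 183 FPKM under ABA, with a log2 fold change of -8.16 (SE 0.09, adjusted p = 7.39e-13 in edgeR's quasi-likelihood test). Its MS control mean was 126 FPKM, so that PEG was the group that stood apart. In the other copy, Manes.09G034800, ABA stood apart, with 11.1, 10.9 and 10.8 FPKM under PEG, 584, 574 and 594 FPKM under ABA and a mean of 50.0 FPKM in the MS control. The dehydrin with the highest level, Manes.09G138100, differed less, with 574, 563 and 575 FPKM under PEG, against 816, 774 and 818 FPKM under ABA. The member that was higher, *LEA3* family gene Manes.05G061300, differed by 0.23 on the log2 scale and was named after its values were seen. It had 54.0, 56.3 and 53.4 FPKM under PEG, against 42.5, 39.5 and 38.0 FPKM under ABA. In a fit of all 9 libraries it did not pass (0.25, adjusted p = 0.865 in edgeR's quasi-likelihood test). Its MS control libraries had 284, 0.606 and 0.963 FPKM, so that 1 of them stood apart.

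Seed maturation proteins, which are made in ripening embryos and include storage albumins, oleosins, caleosins and cupins, had 30 lower and 8 higher members among 40 tested. A caleosin-related gene (Manes.17G082500), of a family that coats oil bodies, had 20.4, 18.7 and 18.7 FPKM under PEG, against 368, 389 and 399.7 FPKM under ABA. A gene annotated as a seed maturation protein (Manes.05G078100) was almost absent under PEG, with 0, 0 and 0.0557 FPKM, against 21.8, 20.3 and 22.3 FPKM under ABA. The cupin with the highest level, Manes.17G113900, had 124, 125 and 127 FPKM under PEG, against 728, 739 and 748 FPKM under ABA and a mean of 815 FPKM in the MS control, so that for this gene ABA and MS control were close. The set of 39 seed and embryo markers, of which 20 were tested, held 19 lower genes and 1 higher gene. It was drawn by its own search terms without removing genes of the lists above, so it can count the same genes again.

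Galactinol and raffinose genes make and use the sugars that build up in dry leaves, and 13 of 18 tested members were lower and 3 higher under PEG. *SIP2*-like Manes.08G049600 had the highest level, with 52.3, 51.7 and 52.4 FPKM under PEG, against 659, 666 and 662 FPKM under ABA and a mean of 393 FPKM in the MS control. It differed by a log2 fold change of -3.89 (SE 0.02, adjusted p = 3.22e-15 from the same test), and in Arabidopsis the SIP2 enzyme breaks raffinose down rather than making it. Galactinol synthases, which start the pathway, did not move together. *GolS1*-like Manes.15G003200 had 49.7, 50.6 and 48.9 FPKM under PEG, against 228, 229 and 231 FPKM under ABA, whereas *GolS4*-like Manes.13G029000, named after its values were seen, had 249, 252 and 247 FPKM under PEG, against 85.4, 88.6 and 86.0 FPKM under ABA. In both genes the groups did not overlap, and the *GolS4*-like gene was higher under PEG by 1.3 on the log2 scale. In proline metabolism, none of 6 genes was higher and 4 were lower, with *P5CS2*-like Manes.10G024800, which makes the proline precursor, at 31.3 ± 0.549 FPKM under PEG and 181 ± 3.28 FPKM under ABA (SD, n = 3 each).

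Aquaporins, the water channels of plant membranes, were divided, with 10 higher and 13 lower of 24 tested. *PIP2*-type Manes.09G068800 had 6.40, 7.39 and 6.49 FPKM under PEG, against 230.3, 222 and 219 FPKM under ABA, a log2 fold change of -5.27. *PIP3*-like Manes.11G096600 had the opposite difference, with 137, 143 and 137 FPKM under PEG and 23.4, 22.6 and 24.0 FPKM under ABA, a log2 fold change of 2.35. The aquaporin with the highest level, *PIP1;4*-like Manes.02G020100, was higher under PEG at 298 ± 4.43 FPKM, against 179 ± 5.87 FPKM under ABA (SD, n = 3 each).

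Genes of the leaf surface were lower under PEG in larger numbers than they were higher. Of 39 wax, cutin and suberin genes tested, 22 were lower and 13 higher, with a median of -0.84. The β-ketoacyl-CoA synthases that lengthen fatty acids for wax led the list. *KCS1*-like Manes.05G017600 had 6.53, 6.84 and 6.56 FPKM under PEG, against 291, 298 and 287 FPKM under ABA, a log2 fold change of -5.68 (SE 0.04, adjusted p = 2.98e-14 in edgeR's quasi-likelihood test), and *KCS6*-like Manes.14G102100 had 23.0, 21.6 and 23.5 FPKM under PEG, against 253, 243 and 249 FPKM under ABA. No PEG library of either gene came near an ABA library, and the MS control means of 57.9 and 120.4 FPKM were in between. Lipid transfer proteins, small proteins that carry lipids in the cell wall, counted 20 lower and 14 higher of 38 tested. The *LTP3*-like genes were among the most abundant transcripts under ABA. Manes.14G166500 had 168, 158 and 159.6 FPKM under PEG, against 2679, 2596 and 2689 FPKM under ABA, and Manes.08G171800 and Manes.08G171900, which are neighbours on chromosome 8, had log2 fold changes of -4.30 and -2.56. The handling of reads shared by near-identical copies is not described in the sources used, so values of such copies are uncertain, here and in the families below.

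Photosynthesis genes were the clearest group on the PEG side. The light-harvesting antenna proteins bind the chlorophyll that captures light, and of 24 tested members 22 were higher and none lower under PEG, 18 of them at least 2-fold. The list summed to 2496 to 2660 FPKM in PEG, 525 to 534 FPKM in ABA and 912 to 965 FPKM in MS control libraries. *LHCB4.3*-like Manes.07G128500 had 101, 104 and 104 FPKM under PEG, against 4.27, 4.53 and 4.26 FPKM under ABA and a mean of 40.1 FPKM in the MS control, with a log2 fold change of 4.34 (SE 0.05, adjusted p = 9.66e-13 in edgeR's quasi-likelihood test). *LHCA3*-like Manes.13G058600, the antenna gene with the highest level, had 422, 418 and 409.7 FPKM under PEG, against 77.6, 73.6 and 68.3 FPKM under ABA. The 2 members that did not pass were Manes.15G033100, at 0.29 on the log2 scale, and Manes.17G066700, whose libraries disagreed within each group, with 1.73, 153 and 1.80 FPKM under PEG and 1.34, 13.6 and 13.9 FPKM under ABA. Without PEG replicate 2, Manes.17G066700 was lower under PEG (-2.67, adjusted p = 0.0131 in edgeR's quasi-likelihood test), and Manes.15G033100 passed as higher without ABA replicate 2 (0.41) and under 4 other alternatives. Both were named after their values were seen. The PEG mean was above the MS control mean for 23 of the 24 antenna genes and the ABA mean below it for 22, so that against either group the ABA libraries were low.

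Of 57 photosystem subunits tested, 52 were higher and 2 lower under PEG, and the list summed to 14370 to 14579 FPKM in PEG libraries against 3976 to 4087 FPKM in ABA libraries. *PSBR*-like Manes.15G102500, a photosystem II subunit, had the highest level, with 1744, 1384 and 1605 FPKM under PEG and 287, 281 and 298 FPKM under ABA. *PSAE2*-like Manes.12G040000, a photosystem I subunit, had 314, 336 and 330.1 FPKM under PEG, against 36.0, 36.5 and 35.9 FPKM under ABA, which was a log2 fold change of 2.96 (SE 0.04). A gene of photosystem I subunit D-2 went strongly the other way, named after its values were seen. It was Manes.02G143000, with 0.625, 0.979 and 0.723 FPKM under PEG, against 66.3, 64.4 and 61.0 FPKM under ABA and 146, 152 and 6.73 FPKM in the MS control, where 1 library stood apart from the other two. The ABA mean was below the MS control mean for 56 of the 57 subunits, and the PEG mean above it for 53.

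Carbon fixation followed the photosystems. Of 31 Calvin cycle and photorespiration genes tested, 22 were higher and 5 lower under PEG, and all 17 that differed by at least 2-fold were higher. A Rubisco small subunit (Manes.01G011500) was the most abundant, with 5659, 5648 and 5558 FPKM under PEG, against 261, 384 and 429 FPKM under ABA and a mean of 2385 FPKM in the MS control. The ABA libraries of this gene differed among themselves, and all were far below every PEG library. Carbonic anhydrase 1, which supplies carbon dioxide from bicarbonate, had copies with log2 fold changes of 4.52 (Manes.17G116800) and 3.40 (Manes.15G167500). Rubisco activase (Manes.10G027600) had 819, 815 and 801 FPKM under PEG, against 112, 109 and 107 FPKM under ABA. In photorespiration, the P-protein of glycine decarboxylase (Manes.16G080300) had 239.7, 236 and 243 FPKM under PEG and 24.2, 23.8 and 24.0 FPKM under ABA, and alanine:glyoxylate aminotransferase (Manes.01G181700) had a log2 fold change of 4.44.

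Of 17 chlorophyll synthesis genes tested, 13 were higher and 1 lower under PEG, and of 32 genes of chlorophyll breakdown and leaf senescence 8 were higher and 21 lower. Split after the values were seen, the 7 genes of chlorophyll breakdown in that list had 1 higher and 6 lower, and the other 25 genes, of senescence, had 7 higher and 15 lower. The ABA mean was below the MS control mean for 16 of the 17 synthesis genes and 1 of the 7 breakdown genes. It was below for 17 of the 25 senescence genes. With the PEG and MS control labels exchanged, the more frequent direction of the senescence genes against ABA would turn. Magnesium chelatase subunit H (Manes.08G050600), at the entry to the chlorophyll branch, had 27.1, 28.1 and 26.3 FPKM under PEG, against 3.17, 3.29 and 2.84 FPKM under ABA. *NYE1*-like Manes.01G069700, of the gene family that starts the breakdown of chlorophyll, had 27.4, 27.1 and 26.4 FPKM under PEG, against 269, 274 and 273 FPKM under ABA. Their groups did not overlap, with log2 fold changes of 2.91 and -3.56. The sugar transporter gene *SAG29* had 0.652, 0.839 and 0.696 FPKM under PEG, against 361, 353 and 367 FPKM under ABA in its copy Manes.13G006800, one of the largest differences of the comparison at -9.16 (SE 0.06, adjusted p = 5.34e-14 in edgeR's quasi-likelihood test). Chlorophyllase 1 (Manes.05G081000), an enzyme that takes the phytol tail off chlorophyll and that the search terms of the list did not take in, was higher, with 63.5, 63.8 and 61.4 FPKM under PEG and 1.72, 3.02 and 2.69 FPKM under ABA.

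Sugar and starch genes were evenly divided, with 48 higher and 43 lower of 106 tested, but single members differed widely. *BAM1*-like Manes.03G155800, a starch-degrading β-amylase, had 70.2, 70.2 and 67.9 FPKM under PEG, against 734, 738 and 725 FPKM under ABA. Another plastid β-amylase gene, Manes.15G171200, named after its values were seen, had the opposite difference, with 46.1, 42.6 and 45.0 FPKM under PEG and 2.99, 2.98 and 3.17 FPKM under ABA. Sucrose synthases split as well, with log2 fold changes of -1.38 in the *SUS3*-like Manes.01G221900 and 2.26 in the *SUS4*-like Manes.16G090600. In nitrogen assimilation, 19 of 38 genes were higher and 9 lower. Plastid glutamine synthetase 2 (Manes.03G186600), which takes up the ammonia freed in photorespiration, had 711, 715 and 729.8 FPKM under PEG, against 141, 135 and 134 FPKM under ABA. Asparagine synthetase 1 (Manes.02G212800), which stores nitrogen when carbon is short in Arabidopsis, had 315, 311 and 305 FPKM under PEG, against 1192, 1105 and 1215 FPKM under ABA.

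Genes of cell division were mostly higher under PEG. The share was 43 of 62 for cyclins and their kinases, 32 of 43 for DNA replication, 40 of 48 for histones and 48 of 58 for kinesins and tubulins, with 10, 2, 6 and 4 lower. For these lists the position of the MS control differs from that for photosynthesis. The ABA mean was above the MS control mean for 46 of 62 cyclins and kinases and 32 of 43 replication genes. The same held for 25 of 48 histones and 40 of 58 kinesins and tubulins. If the PEG and MS control labels were exchanged, the more frequent direction against ABA would turn in these lists, narrowly so for histones. Dividing-cell markers had the same order, as given above. Cyclin D3;1 (Manes.07G076800), which drives entry into the cell cycle, had 6.92, 7.13 and 6.65 FPKM under PEG, against 0.918, 1.15 and 1.08 FPKM under ABA and a mean of 0.273 FPKM in the MS control, with a log2 fold change of 2.49 (SE 0.13, adjusted p = 5.26e-08 in edgeR's quasi-likelihood test). Cyclin B1;4 (Manes.02G135600), a mitotic cyclin, had 9.59, 10.8 and 10.4 FPKM under PEG, against 2.95, 2.49 and 2.82 FPKM under ABA. Cyclin B2;3 (Manes.02G112900) was the exception among the dividing-cell markers, with 5.54, 5.58 and 6.48 FPKM under PEG, against 23.0, 23.2 and 23.6 FPKM under ABA.

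Among replication genes, an MCM helicase subunit (Manes.S101400) had 10.1, 10.1 and 9.90 FPKM under PEG, against 2.68, 2.65 and 2.45 FPKM under ABA, and a ribonucleotide reductase gene (Manes.17G103000), which makes deoxynucleotides, had a log2 fold change of 1.41. Histone H2A 12 (Manes.11G133400) had 108, 106 and 100.3 FPKM under PEG, against 20.5, 19.6 and 19.9 FPKM under ABA and a mean of 22.9 FPKM in the MS control. β-tubulin 8 (Manes.06G147900) had 124, 124 and 123 FPKM under PEG, against 31.9, 31.6 and 30.9 FPKM under ABA. None of these genes had overlapping groups. Histone copies that went the other way, Manes.03G018100 at -1.12 and Manes.S022500 at -1.18, were named after their values were seen. Ribosomal proteins, of cytosol and organelles, counted 131 higher and 74 lower of 336 tested, and 131 did not pass, with 17 and 6 at least 2-fold apart.

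Leaf growth factors counted 33 higher and 20 lower of 65 tested. *TCP4*-like genes, which end cell division in growing Arabidopsis leaves, were higher under PEG together with the division genes. Manes.13G138300 had 31.4, 30.4 and 29.3 FPKM under PEG, against 4.24, 4.09 and 4.63 FPKM under ABA, and Manes.15G091000 had a log2 fold change of 1.40. The meristem genes of the KNOX family, named after their values were seen, were present under both treatments and close to 0 in the MS control. *BP*-like Manes.05G184900 had 7.63, 6.96 and 6.78 FPKM under PEG, 13.5, 12.5 and 12.2 FPKM under ABA and a mean of 0.471 FPKM in the MS control. Another *BP*-like copy, Manes.18G051700, went the other way, with 6.35, 5.57 and 5.56 FPKM under PEG and 3.79, 4.29 and 3.65 FPKM under ABA. Its log2 fold change was 0.35 (SE 0.10, adjusted p = 0.00684 in edgeR's quasi-likelihood test). *STM*-like Manes.16G003000 had 10.7, 10 and 10 FPKM under PEG and 9.32, 9.57 and 10.4 FPKM under ABA, and its difference did not pass (adjusted p = 0.109 in edgeR's quasi-likelihood test). Protodermal factor 1 (Manes.01G128300), a gene of young epidermis also named after its values were seen, had 125, 132 and 134 FPKM under PEG, against 27.2, 28.8 and 27.5 FPKM under ABA and a mean of 4.40 FPKM in the MS control.

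Gibberellin and auxin, hormones of growth, had more genes higher than lower. The counts were 15 and 9 of 27 tested for gibberellin and 87 and 47 of 154 for auxin. The ABA mean was above the MS control mean for 16 of the 27 gibberellin genes, which with exchanged labels would turn their more frequent direction, and for 73 of the 154 auxin genes. *GASA6*-like Manes.09G009800, a gibberellin-regulated gene, had 108, 126 and 123 FPKM under PEG, against 3.51, 4.61 and 3.79 FPKM under ABA and a mean of 99.5 FPKM in the MS control, so that ABA stood apart. A gene whose Arabidopsis counterpart is the gibberellin 20-oxidase *GA20ox1* (Manes.14G031200), which acts in gibberellin synthesis and which the search terms of the list did not take in, had the largest positive difference among annotated genes with a PEG mean of at least 20 FPKM and no overlap between groups, with 47.6, 50.0 and 46.4 FPKM under PEG and 0.480, 0.720 and 0.837 FPKM under ABA and a log2 fold change of 5.91 (SE 0.11, adjusted p = 2.69e-11 in edgeR's quasi-likelihood test). The next step, gibberellin 3-oxidase (Manes.11G050500, named after its values were seen), was higher by 3.16 on the log2 scale. Among auxin genes, the repressor *IAA14* (Manes.15G036200) had 155, 152 and 149 FPKM under PEG, against 32.3, 32.9 and 35.0 FPKM under ABA, while auxin response factor 2 (Manes.06G126000) was lower, with 175, 171 and 174 FPKM under PEG and 311, 313 and 310.2 FPKM under ABA. Cytokinin genes counted 20 higher and 12 lower of 41.

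Wall genes were mixed. Expansins, which loosen cell walls, and xyloglucan enzymes counted 27 higher and 17 lower of 57 tested, yet the members with the smallest p were lower. Expansin A1 (Manes.06G091300) had 8.85, 7.97 and 7.87 FPKM under PEG, against 154, 155 and 151 FPKM under ABA, and expansin A8 (Manes.08G172000) had 0, 0.174 and 0.0627 FPKM under PEG, against 32.9, 33.9 and 34.3 FPKM under ABA. No PEG library of either gene came near an ABA library, with log2 fold changes of -4.44 and -8.80. Cellulose and arabinogalactan genes counted 41 higher and 18 lower of 73, and lignin and phenylpropanoid genes 12 higher and 26 lower of 51. Hydroxycinnamoyl transferase (Manes.06G034900), a step towards lignin and chlorogenic acid, was against the trend of its list, with 37.1, 35.7 and 36.9 FPKM under PEG and 3.64, 2.94 and 3.40 FPKM under ABA. A pectate lyase (Manes.12G019100), which cuts pectin, had 39.3, 36.0 and 36.8 FPKM under PEG, against 2.25, 2.59 and 2.42 FPKM under ABA.

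Pectin methylesterases, encoded by the *MePMEs*, remove methyl groups from pectin and so change how stiff the wall is. Of 89 *MePMEs*, 31 were tested, of which 14 were higher and 13 lower under PEG than under ABA, and 11 and 5 of these differed by at least 2-fold. Over all genes tested, 38.5% were higher and 37.1% lower, and 15.7% and 13.0% by at least 2-fold. The largest difference was that of *MePME87* (Manes.17G081100, chromosome 17 from 22100885 to 22102813), with 3.76, 4.05 and 3.10 FPKM under PEG, against 431, 440.1 and 439 FPKM under ABA. *MePME84* (Manes.16G089400) had 0.540, 0.984 and 0.819 FPKM under PEG, against 63.5, 64.6 and 66.0 FPKM under ABA. In both the ABA libraries were far above those of PEG, with log2 fold changes of -7.12 (SE 0.08, adjusted p = 7.71e-13) and -6.59 (SE 0.11, adjusted p = 1.07e-11) in edgeR's quasi-likelihood test. The MS control mean of *MePME87* was 127 FPKM, between the groups, and that of *MePME84* was 1.58 FPKM, close to PEG. For a single gene of 3 against 3 libraries, the exact permutation test cannot go below a two-sided p of 0.1, the value it gave on FPKM for each of the *MePMEs* at least 2-fold apart.

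On the PEG side, *MePME33* (Manes.04G053900) had 32.7, 33.0 and 33.9 FPKM under PEG, against 3.13, 3.29 and 2.38 FPKM under ABA and a mean of 5.92 FPKM in the MS control. *MePME20* (Manes.02G142800) had 54.1, 54.1 and 54.9 FPKM under PEG, against 17.5, 18.6 and 16.9 FPKM under ABA. Its MS control mean of 78.1 FPKM was above both. *MePME17* (Manes.02G039500) had 10.7, 10.5 and 9.44 FPKM under PEG, against 1.16, 1.01 and 1.25 FPKM under ABA, and its MS control mean of 0.0802 FPKM was below both. In these 3 genes the lowest PEG library was well above the highest ABA library, with log2 fold changes of 3.28, 1.40 and 2.94. *MePME1*, *MePME10*, *MePME11*, *MePME16*, *MePME19*, *MePME57*, *MePME82* and *MePME86* were also at least 2-fold higher, all at PEG means under 10 FPKM, and *MePME3*, *MePME36* and *MePME44* at least 2-fold lower. Some of these rest on few reads. *MePME36* had 3 reads over the PEG libraries and 44 over the ABA libraries, a ratio of 0.0533 with a 95% counting interval of 0.0106 to 0.166 (exact binomial, counting error only). *MePME10*, *MePME16* and *MePME19* had 47, 43 and 80 reads over the PEG libraries, and 8, 11 and 9 over the ABA libraries.

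**Figure D5:**
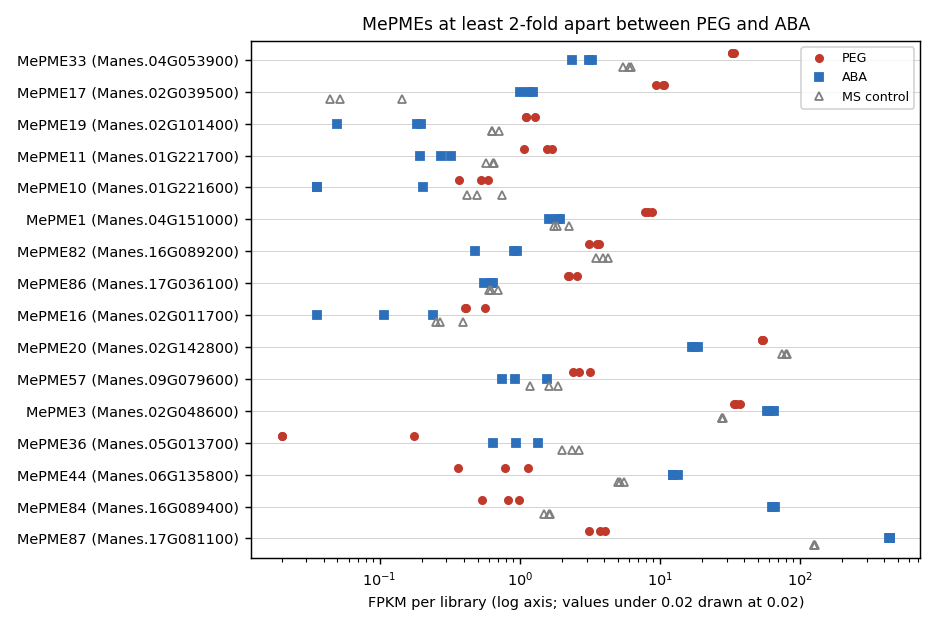
FPKM in each library (horizontal log axis, values under 0.02 drawn at 0.02) of the 16 *MePMEs* at least 2-fold apart, with PEG as circles, ABA as squares and MS control as open triangles. The upper 11 are higher and the lower 5 lower under PEG than under ABA, and MePME87 spans the widest range, with a mean of 3.64 FPKM under PEG and 437 FPKM under ABA.

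Transcription factor families were divided, with a few stress-related members far apart. NAC factors counted 19 higher and 25 lower of 58 tested, WRKY factors 33 and 37 of 84, MYB factors 44 and 43 of 114, bHLH factors 68 and 34 of 128, AP2/ERF and DREB factors 44 and 33 of 101 and HD-Zip factors 30 and 14 of 53. Among all genes tested, 38.5% were higher and 37.1% lower. The NAC factors summed to 1578 to 1598 FPKM in PEG libraries against 3837 to 3867 FPKM in ABA libraries. *RD26*-like NAC gene Manes.03G114200, whose Arabidopsis counterpart responds to drought and ABA, had 139.6, 141 and 137 FPKM under PEG, against 914, 905 and 924 FPKM under ABA. Another copy, Manes.15G084800, had the highest level of the NAC factors, with 328, 328 and 313 FPKM under PEG, against 853, 849 and 841 FPKM under ABA, a log2 fold change of -1.61 (SE 0.02). Its MS control mean of 163 FPKM lay below the PEG libraries, while that of Manes.03G114200 lay above them. *HB7*-like HD-Zip gene Manes.05G018700, another ABA-responsive factor, had 69.2, 66.5 and 62.9 FPKM under PEG, against 1107, 1110 and 1101 FPKM under ABA. The log2 fold changes of Manes.03G114200 and the *HB7*-like gene were -2.94 (SE 0.02) and -4.28 (SE 0.03), and in the MS control their means were 207 and 456 FPKM. *MYB102*-like Manes.17G033800 had 13.4, 12.2 and 12 FPKM under PEG, against 195, 194 and 199 FPKM under ABA.

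Other factors were higher under PEG. A B-box zinc finger gene (Manes.05G137600) had 36.5, 37.4 and 35.3 FPKM under PEG, against 1.07, 0.818 and 0.983 FPKM under ABA, and a cryptochrome-interacting bHLH factor (Manes.04G088800), of a family that acts in blue light responses, had 71.5, 75.4 and 71.8 FPKM under PEG, against 3.19, 2.09 and 2.59 FPKM under ABA. Neither gene had overlapping groups, with log2 fold changes of 5.03 and 4.58. *ERF6*-like Manes.02G042400 had 34.5, 35.4 and 34.6 FPKM under PEG, against 1.71, 1.32 and 1.86 FPKM under ABA. *ERF1*-like Manes.13G033200, a defence regulator named after its values were seen, had 42.6, 43.0 and 38.4 FPKM under PEG, against 2.33, 2.20 and 2.26 FPKM under ABA and a mean of 36.2 FPKM in the MS control. *HB16*-like Manes.12G129800 was the HD-Zip gene with the smallest p among those higher under PEG, at 474 ± 2.73 FPKM under PEG and 151 ± 3.99 FPKM under ABA (SD, n = 3 each).

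Ethylene, jasmonate and defence genes were more often lower under PEG. The counts were 4 higher and 8 lower of 14 ethylene genes, 9 and 22 of 38 jasmonate genes and 15 and 32 of 56 pathogenesis-related genes. ACC synthase 1 (Manes.05G029900), which makes the ethylene precursor, had 1.56, 1.87 and 1.53 FPKM under PEG, against 26.3, 26.2 and 27.6 FPKM under ABA, and the ethylene-forming ACC oxidase (Manes.12G069300) had 34.3, 33.8 and 33.0 FPKM under PEG, against 225, 232 and 224 FPKM under ABA. The groups of both genes were well apart. Osmotin 34 (Manes.02G025200), a pathogenesis-related protein, had 12.8, 16.3 and 13.4 FPKM under PEG, against 770.3, 778 and 806 FPKM under ABA and a mean of 820.4 FPKM in the MS control, with a log2 fold change of -6.01 (SE 0.08, adjusted p = 2.5e-12 in edgeR's quasi-likelihood test). Here PEG was the group that stood apart. A chitinase (Manes.11G130700), an enzyme that attacks fungal walls, had 12.4, 11.4 and 11.7 FPKM under PEG, against 461, 449.5 and 455 FPKM under ABA. JAZ3 (Manes.15G133000), a repressor of jasmonate responses, was lower by a log2 fold change of -2.09.

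Heat shock proteins and chaperones counted 60 higher and 114 lower of 219 tested, glutathione S-transferases 19 and 31 of 61, calcium sensors 59 and 83 of 169, antioxidant enzymes 20 and 16 of 41 and class III peroxidases 16 and 12 of 38. The shares of all genes tested were 38.5% higher and 37.1% lower. Heat shock factor A2 (Manes.16G100700) was low under PEG, with 0.869, 0.989 and 0.882 FPKM, against 26.0, 27.2 and 25.7 FPKM under ABA. Catalase 2 genes, whose enzyme removes the hydrogen peroxide of photorespiration, differed by copy. Manes.02G113300 had 183, 189.6 and 185 FPKM under PEG, against 24.6, 25.4 and 25.4 FPKM under ABA, whereas Manes.05G130700 had 56.7, 58.8 and 61.6 FPKM under PEG, against 181, 186 and 189 FPKM under ABA. The most abundant copy, Manes.05G130500, was higher by 0.33 on the log2 scale. *CIPK25* (Manes.16G128800), a protein kinase in the calcium sensor list, had a log2 fold change of -2.58.

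Stomata close in response to ABA, and genes of the stomatal lineage and guard cells counted 8 higher and 5 lower of 13 tested. *MYB60*-like Manes.08G151100, a guard cell factor that helps stomata open in Arabidopsis, had 11, 11.3 and 10.9 FPKM under PEG, against 1.61, 1.96 and 1.60 FPKM under ABA. The inward potassium channel *KAT1*-like Manes.17G069300 was lower, with 0.878, 0.817 and 1.05 FPKM under PEG and 4.30, 4.02 and 3.48 FPKM under ABA. Both genes were weakly expressed, and their groups did not overlap. *FAMA*-like Manes.15G052900, which ends the stomatal lineage, was higher by 1.67 on the log2 scale, with an MS control mean of 12.6 FPKM close to that of PEG. Of the 8 guard cell markers, 4 were higher and 4 lower under PEG. They summed to 56.8 to 59.8 FPKM in PEG, 30.4 to 30.5 FPKM in ABA and 51.6 to 53.8 FPKM in MS control libraries, and the difference between PEG and ABA lay mostly in *MYB60* and the *FAMA* copies, the copies with means of 13.3 and 13.9 FPKM under PEG against 3.58 and 4.15 FPKM under ABA. Circadian clock genes counted 12 higher and 7 lower of 30, with *PRR5*-like Manes.01G043200 at a log2 fold change of 1.26.

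Among the largest differences were those of genes that were nearly silent in one treatment. On the ABA side stood a peroxiredoxin of seeds (Manes.03G210400), with no read under PEG, against 63.6, 56.8 and 57.9 FPKM under ABA and a mean of 44.3 FPKM in the MS control, at least 759.6-fold lower under PEG when set against a floor of 3 counts over the 3 PEG libraries. A UDP-glycosyltransferase (Manes.07G090000) had no read under PEG either, against 28.5, 31.3 and 29.2 FPKM under ABA, at least 751-fold lower, and its MS control mean was 1.28 FPKM. Nearby cytochrome P450 genes of the *CYP83B1* type on chromosome 5 differed together. Manes.05G139600 had 0.119, 0.196 and 0.0845 FPKM under PEG, against 181, 179 and 178 FPKM under ABA, and Manes.05G139400 had 5.97, 5.51 and 5.87 FPKM under PEG, against 1483, 1476 and 1496 FPKM under ABA. Genes with a domain of unknown function, DUF1442 (Manes.02G201000, Manes.02G221500 and Manes.S098500), were also near 0 under PEG, and Manes.02G201000 had 0.398, 0.315 and 0.425 FPKM under PEG, against 268, 256 and 252 FPKM under ABA. Their log2 fold changes were -9.60, -9.83 and -9.70. In the MS control their means were low as well, at 5.69, 3.20 and 2.34 FPKM, so that ABA stood apart. A *CAP160*-type gene (Manes.06G147200), named for a cold-acclimation protein of spinach, had 2.24, 2.81 and 2.75 FPKM under PEG, against 495, 492 and 498 FPKM under ABA. Its MS control mean was 20.8 FPKM.

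On the PEG side, an MLP-like gene (Manes.02G075500) had 143, 155 and 151 FPKM under PEG, against 4.91, 5.44 and 2.86 FPKM under ABA, and thioredoxin M-type 4 (Manes.02G173600), a chloroplast redox protein, had 211, 212 and 211 FPKM under PEG, against 8.18, 8.53 and 6.82 FPKM under ABA. The ABA libraries were low for both, with log2 fold changes of 4.86 and 4.53. At least 100 reads over 1 treatment and none over the other were found for 15 genes, of which 12 had no read under PEG and 3 none under ABA. Among the 12 were an *EM6*-like stress-induced protein (Manes.10G010700), a LEA group 6 gene (Manes.12G112300) and seed storage albumin 2 (Manes.15G075900), with ABA means of 5.76, 10.4 and 5.73 FPKM. In the MS control these 3 genes had higher means still, at 23.6, 59.8 and 24.6 FPKM. The 3 genes with no read under ABA were an MLP-like gene (Manes.18G114700), a B-box gene (Manes.01G012000) and Manes.S044900, which has no description in the table, with 110, 138 and 135 reads over the PEG libraries.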

How the data were processed

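Total RNA of mature leaves was sequenced by RNA-seq. For each gene and library, the authors deposited both the read count and the FPKM, with gene spans of the cassava genome v6.1 and the nearest Arabidopsis gene. HISAT2 2.0.4 and StringTie 1.3.0 are listed in the submitters' processing notes. The counting tool, its strand setting and the way FPKM was computed are not stated in the sources used, so overlapping and antisense genes cannot be told apart.

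Read counts of the 6 libraries were scaled by TMM (factors of 1.08 for PEG and 0.926 to 0.928 for ABA) and tested in edgeR 4.0.16 (R 4.3.3) with its filter for low counts, the quasi-likelihood test and Benjamini-Hochberg adjustment, after a check on simulated counts. FPKM values are quoted per library or as mean ± SD and were used for levels only. Alternatives used DESeq2 1.42.0, limma 3.58.1 with voom or on log2(FPKM + 1), other scaling and filters, the replicate number as a block, all 9 libraries and 1 library left out. Median chi-square values between libraries of a group were 0.658 to 0.709, where sampling alone gives 0.455.

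The comparison and the gene lists were chosen with earlier results of these data known. Lists are matches of search terms to the descriptions in the table, edited once these had been read. Genes named were the 15 largest differences in each direction among annotated genes with non-overlapping libraries and a mean of at least 20 FPKM in the higher group, the 3 smallest p and the highest level in each list, the *MePMEs* at least 2-fold apart and genes with at least 100 reads in 1 group and none in the other. Others are marked as chosen after their values were seen. The table's header names no columns of comparisons. No sequence is given, since no cassava sequence was used here.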

Additional observations from a re-analysis of the deposited data

How the results depend on the processing

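The counts of genes higher (9094) and lower (8768) under PEG stayed within 1.5 times the main count in all 16 alternatives that were run, from 8093 to 11954 higher and from 6298 to 9076 lower. At least 2-fold counts, 3703 higher and 3085 lower, moved farther with a minimum mean of 5 FPKM, which left 16329 genes to test (1971 and 1816), and with limma on log2(FPKM + 1), which gave 1924 lower. Leaving out 1 library gave 8645 to 8771 genes higher, 8524 to 8608 lower, 3698 to 3768 at least 2-fold higher and 3139 to 3209 at least 2-fold lower. The replicate block gave 8882, 8599, 3685 and 3085. Same-numbered PEG and ABA libraries had correlations of -0.0142, -0.0159 and -0.0134 in their deviations from the group means, so they share only a number. Of 146 tested genes named in the text, 122 were fitted in all 16 alternatives and 24 in fewer. In the alternatives that fitted them, 141 kept their direction and side of the threshold, and none that had passed changed sign. The exceptions were Manes.05G003500, Manes.05G061300, Manes.13G143500, Manes.15G033100 and Manes.17G066700, and the cause was not tested. List medians changed sign in 8 settings for MYB factors, in 7 for sugar genes, in 4 each for WRKY factors, NAC factors, flavonoid genes and *MePMEs*, in 2 each for other pectin enzymes, ethylene genes and calcium sensors and in 1 for lignin genes, and in none for the other 39 lists. The search for promoter motifs and its alternative were not run, since no cassava promoter sequence of v6.1 was used here. Depth limits genes with few reads: 5807 of the 29449 genes with a read in the 6 libraries were not tested.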

Other observations

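Flavonoid and anthocyanin genes were divided, with 8 higher and 9 lower of 20 tested under PEG against ABA. Dihydroflavonol 4-reductase (Manes.05G157000), a step towards anthocyanins, had 46.5, 43.4 and 42.4 FPKM under PEG, against 109, 106 and 114 FPKM under ABA, and the log2 fold change was -1.53. Sugar exporters of the SWEET family went both ways, and the following genes were chosen after their values were seen. Manes.18G086400 had 1.91, 2.46 and 2.14 FPKM under PEG, against 41.3, 45.6 and 44.3 FPKM under ABA, while Manes.06G123400 had 4.75, 4.45 and 3.87 FPKM under PEG, against 0.0582, 0 and 0 FPKM under ABA. Within the raffinose list, *SIP2*-like Manes.09G072200 had 21.0, 21.5 and 22.2 FPKM under PEG, against 1.23, 0.919 and 0.907 FPKM under ABA, the opposite of Manes.08G049600 above. The ADP-glucose pyrophosphorylase large subunit (Manes.03G182100), which supplies starch synthesis, was higher under PEG by 2.73 on the log2 scale.

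Some abundant genes differed at least 5-fold between libraries of 1 group. Among genes with a group mean of at least 20 FPKM, this held for 49 of 7649 genes in PEG (0.641%), 37 of 7115 in ABA (0.520%) and 70 of 7456 in MS control libraries (0.939%). The examples below were chosen after their values were seen. *CP12*-like Manes.05G003500, a Calvin cycle regulator, had 782, 1.23 and 13.2 FPKM in the PEG libraries and 0.996, 1.48 and 1.20 FPKM in the ABA libraries. Serine acetyltransferase 2;2 (Manes.03G139000) had 0.803, 44.9 and 1.75 FPKM under PEG and 1097, 1106 and 1101 FPKM under ABA. Phosphoserine aminotransferase (Manes.02G112800) had 37.7, 39.3 and 0.202 FPKM under PEG and 1293, 1294 and 1287 FPKM under ABA. The library that stands apart is a different one in these genes. *ERF9*-like Manes.13G143500, the factor with the highest level in its list, had 97.5, 98.7 and 3.75 FPKM under PEG and 241, 251 and 241 FPKM under ABA, and passed the test with a log2 fold change of -2.09 (SE 0.73, adjusted p = 0.0248 in edgeR's quasi-likelihood test), but not with the Wald test of DESeq2 (adjusted p = 0.0752). Without the 120 genes of this kind in any group, of which 58 had passed, 9065 genes were higher and 8739 lower under PEG. The source of this spread was not tested.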
